A study of Homo sapiens with 8 samples.

Results

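The genes described here are 10 that encode the catalytic subunit of human telomerase, proteins that bind its RNA, and the shelterin complex. They were chosen by symbol, not by their values, and are the catalytic subunit TERT, the RNA-binding proteins DKC1, NOP10 and GAR1, and the shelterin proteins TERF1, TERF2, TERF2IP, TINF2, POT1 and ACD. All 10 were among the 23346 genes listed. They were measured by sequencing of polyadenylated RNA in 8 replicate libraries of hCMEC/D3, a human brain microvascular endothelial line that stands in for the blood-brain barrier in vitro. Background on the line, not given in the sources used here and not measured, is that it is a clone immortalised by lentiviral transfer of a TERT copy and the SV40 large T antigen. All 8 libraries come from this line, and no library of cells without these genes was compared. The replicates formed 1 group, and nothing states whether they came from separate cultures, so the spread given here may be technical.

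Telomerase adds telomeric repeats to chromosome ends. TERT is its reverse transcriptase and copies a template held in the RNA TERC. TERC carries an H/ACA fold, which binds dyskerin (the product of DKC1) with NOP10, NHP2 and GAR1. The same proteins guide pseudouridylation of ribosomal RNA, so most cells make them, whereas most adult somatic cells make little or no TERT. Shelterin covers the repeats: TERF1 and TERF2 bind double-stranded repeats, POT1 binds the single-stranded overhang, ACD (also called TPP1) joins POT1 to TINF2 and recruits telomerase, TINF2 bridges the parts, and TERF2IP (RAP1) rides on TERF2.

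Total counts ranged from 69388544 to 90205244 per library. Every one of the 186768 deposited counts was even, and counting error was therefore taken from read pairs, 34694272 to 45102622 per library. Levels are given as CPM, counts scaled to library size, or as RPKM, CPM per kilobase of the canonical transcript, which allows genes to be compared. Of 6 endothelial markers (PECAM1, CDH5, VWF, KDR, TEK and CLDN5) 6 were detected, at 1422 to 2801 CPM in sum. The summed level was at most 0.731 CPM for 3 astrocyte and 1.29 CPM for 3 microglia markers, of which 0 were detected. It was at most 5.66 CPM for 3 neuron markers (1 detected, SYT1) and 4.71 CPM for 3 epithelial markers (1 detected, KRT19). For 3 mural markers (PDGFRB, RGS5 and CSPG4) it was at most 65.0 CPM, and all 3 were detected. The libraries differed in how their deviations from the gene means ran with transcript length. Replicates 2, 7 and 8 had slopes of -0.23, -0.11 and -0.34 log2 units per doubling of length, against 0.09 to 0.15 in the other 5, so short transcripts read higher in these 3.

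All 10 genes reached at least 1 CPM in all 8 libraries, against 51.3% of all listed genes. Per length of the canonical transcript, the H/ACA proteins stood highest, TERT and the shelterin genes ACD, TERF2IP and TINF2 lay together below them, and TERF2, TERF1 and POT1 were lowest. The median of the 10 mean levels was 28.2 RPKM, and that of 11650 detected genes with a known length was 11.4 RPKM. The 10 genes spread over 8 chromosomes, and 3 of the 6 shelterin genes (TERF2, TERF2IP and ACD) are on chromosome 16.

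Sequence around the start was read for the H/ACA members as a description only. Its relation to the differences between libraries was not tested. The windows run from 250 bases before to 50 after a gene's start and come from RefSeq on GRCh38.p14, a different build from that of the counts. They are chrX:154762614-154762913 (plus strand) for DKC1, chr15:34343087-34343386 (minus strand) for NOP10 and chr4:109815512-109815811 (plus strand), the second of the starts listed for GAR1. Capitals mark CACGTG, the E-box that MYC and related factors can bind, which reads the same on both strands.
DKC1: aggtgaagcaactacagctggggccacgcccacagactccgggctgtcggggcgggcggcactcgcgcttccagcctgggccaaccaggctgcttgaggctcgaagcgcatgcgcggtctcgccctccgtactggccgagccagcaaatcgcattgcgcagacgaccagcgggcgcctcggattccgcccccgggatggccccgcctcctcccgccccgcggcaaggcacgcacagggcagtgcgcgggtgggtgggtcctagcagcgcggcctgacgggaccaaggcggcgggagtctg
NOP10: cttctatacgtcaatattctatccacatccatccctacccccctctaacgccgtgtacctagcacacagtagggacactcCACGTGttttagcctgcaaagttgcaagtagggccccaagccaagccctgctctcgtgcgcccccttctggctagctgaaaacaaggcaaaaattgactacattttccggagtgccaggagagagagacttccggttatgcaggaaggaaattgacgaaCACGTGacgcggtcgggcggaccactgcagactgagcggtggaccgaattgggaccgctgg
GAR1: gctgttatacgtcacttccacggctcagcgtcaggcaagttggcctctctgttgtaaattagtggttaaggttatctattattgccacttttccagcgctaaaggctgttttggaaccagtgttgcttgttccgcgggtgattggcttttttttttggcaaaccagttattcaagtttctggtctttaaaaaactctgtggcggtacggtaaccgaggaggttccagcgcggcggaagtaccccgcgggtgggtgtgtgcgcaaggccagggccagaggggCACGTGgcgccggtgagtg
Of the 10 genes, 8 had windows, 10 windows in all since GAR1 and TINF2 had several starts; TERF1 and TERF2 were not matched. CACGTG was found in 3 of the 10 windows, those of TERT, NOP10 (2 matches) and the GAR1 start shown, against 7.26% of 35116 windows. The window of the other GAR1 start, chr4:109815260-109815559, held no CACGTG, so the GAR1 window shown is the one with the match. Which of these starts is that of GAR1 as counted was not determined, so the match need not lie at its start. In the GAR1 window shown, the match begins at base 282, after the start rather than upstream of it. GGGCGG was in 9 of the 10 windows against 44.95% of all, CCAAT in 4 against 34.6%, and the telomeric repeat TTAGGG in 1 against 9.05%, each searched on both strands. The 35116 windows were not limited to detected genes, whereas all 10 genes were detected, so these shares are not of like genes. Both windows of TINF2 overlap over most of their length, so the 10 are not independent. A match is only a match of letters.

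TERT (chromosome 5, 1253287 to 1295162, minus strand, GRCh37; 16 exons) was among the more abundant of the 10. It ranged from 94.9 CPM in replicate 6 through a median of 123 to 140 CPM in replicate 7, and averaged 120 ± 16.1 CPM (SD, n = 8). The highest library was 1.48 times the lowest. Replicates 1 and 6 were low and replicates 2, 5 and 7 high on CPM. On the transcript of 4039 nt this was 29.8 ± 4.00 RPKM, above 76.8% of detected genes. An introduced copy need not carry the untranslated ends, and the coding part is 3396 nt, so the level per length depends on which length is used. Reads from an introduced copy and from the chromosomal gene cannot be told apart in a table of counts per gene, nor can fewer expressing cells and less RNA per cell in bulk RNA.

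Of 5 listed genes near TERT on chromosome 5, 2 were detected. SLC6A18 and SLC6A19, amino acid transporter genes on its 3′ side, had 0.0102 and 0.0427 CPM. CLPTM1L, the next gene on its 5′ side, had 147 ± 24.4 CPM, or 59.0 ± 9.78 RPKM, and LPCAT1 farther on, an enzyme of phospholipid remodelling, had 37.9 ± 2.14 RPKM (SD, n = 8). SLC6A3, the dopamine transporter gene that lies between these, had 0.197 CPM. The mean of TERT per length was thus below those of CLPTM1L and LPCAT1 and far above those of the transporter genes.

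DKC1 (chromosome X, 153991031 to 154005964, plus strand; 15 exons) encodes the pseudouridine synthase of the H/ACA particle. It ranged from 128 CPM in replicate 8 through a median of 141 to 183 CPM in replicate 5, and averaged 149 ± 21.3 CPM (SD, n = 8), the highest CPM of the 10. Replicates 5 and 7 stood above the rest, with 183 and 177 CPM against at most 159. The snoRNA genes SNORA36A and SNORA56 lie within it.

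GAR1 (chromosome 4, 110736666 to 110745893, plus strand; 7 exons), which helps the particle engage its substrate, ranged from 33.9 CPM in replicate 6 through a median of 39.3 to 53.8 CPM in replicate 7. It averaged 41.2 ± 6.62 CPM (SD, n = 8). Replicates 7 and 5 were again the highest. NOP10 (chromosome 15, 34633917 to 34635362, minus strand; 2 exons), a small scaffold protein, ranged from 50.9 CPM in replicate 4 through a median of 55.7 to 109 CPM in replicate 8, a 2.14-fold range around 67.5 ± 21.6 CPM (SD, n = 8). Its 3 highest libraries, replicates 2, 7 and 8, did not overlap the other 5, which lay between 50.9 and 58.8 CPM. The H/ACA members therefore did not share 1 order of libraries.

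**Figure D1:**
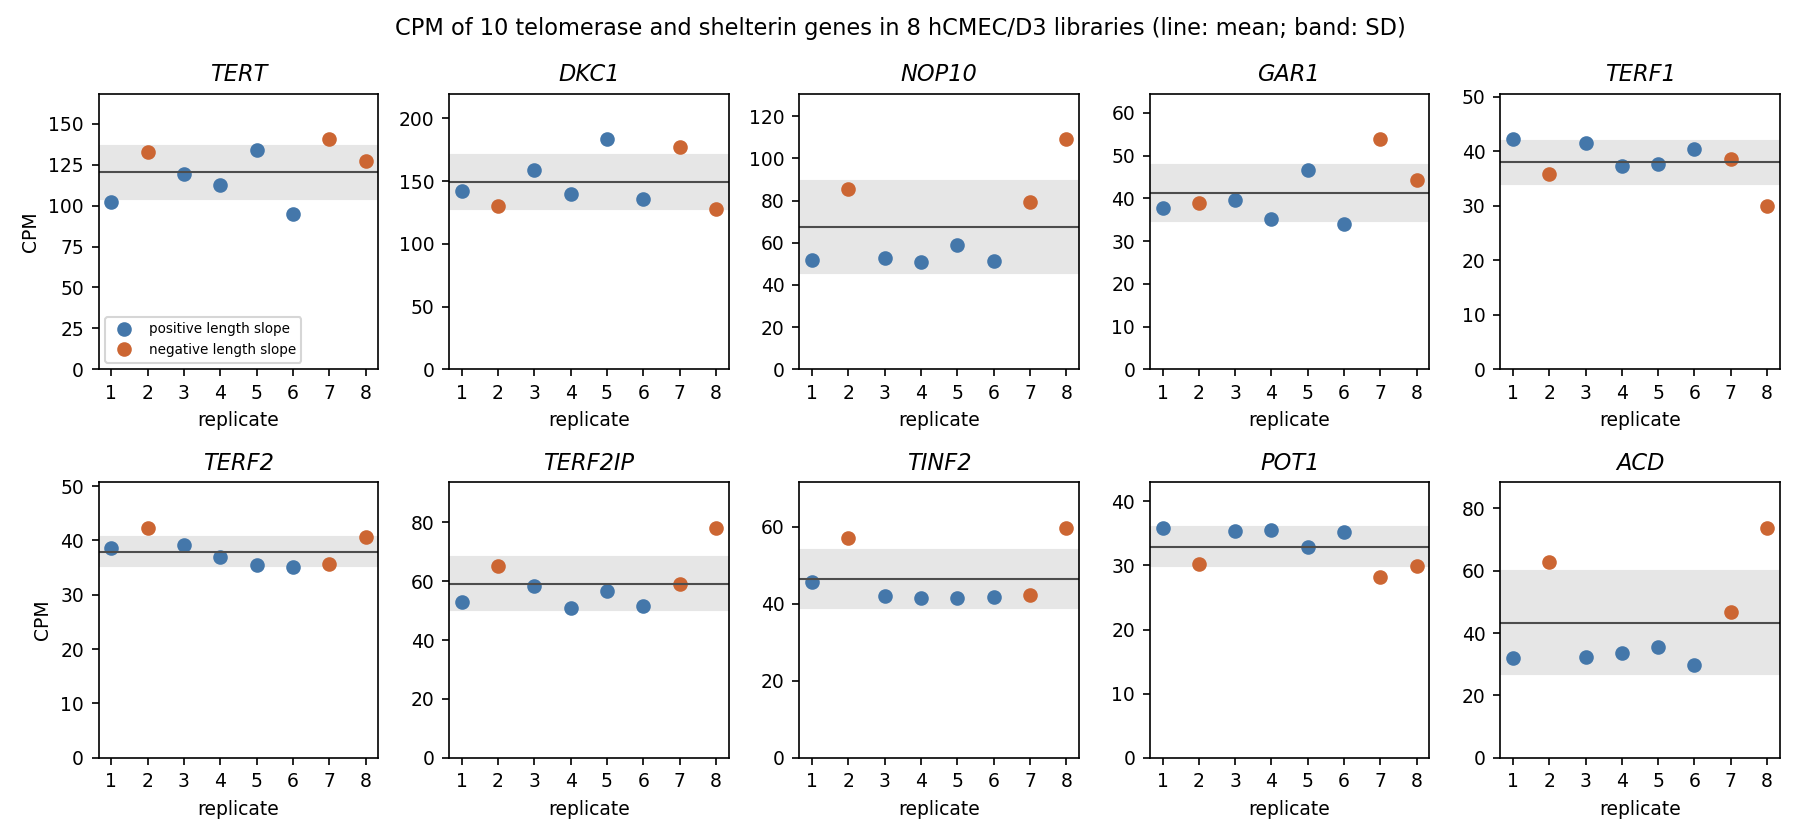
CPM (vertical axes, from 0) of each of the 10 genes against the replicate number, with the mean as a line and the SD as a grey band; orange points are replicates 2, 7 and 8, whose length slope was negative. NOP10 and ACD are high in these 3 libraries, TERF2 stays within 35.1 to 42.3 CPM.

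Within shelterin, TERF2 (chromosome 16, 69389464 to 69419874, minus strand; 10 exons) varied least of all 10. It ranged from 35.1 CPM in replicate 6 through a median of 37.8 to 42.3 CPM in replicate 2, around 38.0 ± 2.63 CPM (SD, n = 8), and its coefficient of variation of 6.94% was above that of 6.79% of detected genes. TERF1 (chromosome 8, 73921097 to 73959987, plus strand; 10 exons), the other repeat-binding protein, ranged from 30.0 CPM in replicate 8 through a median of 38.1 to 42.2 CPM in replicate 1. Its mean was 38.0 ± 3.89 CPM (SD, n = 8). In replicate 8 TERF1 was at its lowest while TERF2 had its second highest value.

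TERF2IP (chromosome 16, 75681635 to 75691341, plus strand; 3 exons) ranged from 50.8 CPM in replicate 4 through a median of 57.5 to 78.1 CPM in replicate 8, around 59.1 ± 9.03 CPM (SD, n = 8). TINF2 (chromosome 14, 24708851 to 24711880, minus strand; 9 exons) ranged from 41.5 CPM in replicate 4 through a median of 42.2 to 59.7 CPM in replicate 8, around 46.5 ± 7.49 CPM. On CPM replicates 2 and 8 were the highest for both, and the other 6 libraries of TINF2 lay between 41.5 and 45.6 CPM.

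POT1 (chromosome 7, 124462440 to 124570037, minus strand; 19 exons) had the lowest mean, 32.9 ± 3.08 CPM (SD, n = 8). It ranged from 28.1 CPM in replicate 7 through a median of 34.1 to 35.8 CPM in replicate 1, and on CPM replicates 2, 7 and 8 were below the other 5, which the CQN values described further on do not show. ACD (chromosome 16, 67691415 to 67694718, minus strand; 12 exons) had the widest range, from 29.8 CPM in replicate 6 through a median of 34.6 to 73.7 CPM in replicate 8, a 2.47-fold range around 43.3 ± 16.5 CPM. Replicates 2, 7 and 8 were above the other 5. ACD overlaps the listed gene RLTPR, at 4.28 to 9.46 CPM, and whether counting used strand is not given in the sources used here.

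Levels of different genes were compared per transcript length, with the log2 ratio of RPKM + 0.1 within each library and an exact permutation test (two-sided, signs flipped in all 256 ways over the 8 libraries). Of 45 pairs, 39 had an adjusted p under 0.05 after Benjamini-Hochberg adjustment over the pairs, and 37 had the same order in 8 of 8 libraries. The smallest p this test can give is 0.00781, adjusted 0.0095. The test treats the 8 libraries as independent, which nothing states, so its p-values describe only how repeatable an order was over these libraries.

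NOP10 was highest, at 133 ± 42.6 RPKM (SD, n = 8). It exceeded DKC1 (60.4 ± 8.62 RPKM) by a log2 ratio of 1.09 ± 0.51 in 8 of 8 libraries (exact permutation p = 0.00781, adjusted p = 0.0095). The transcript of NOP10 has 507 nt, the shortest of the 10. DKC1 exceeded GAR1 (40.6 ± 6.52 RPKM) by 0.57 ± 0.17 in 8 of 8 libraries (exact permutation p = 0.00781, adjusted p = 0.0095), and GAR1 exceeded TERT by 0.44 ± 0.13 with the same count and p-values. DKC1 stood 1.02 ± 0.21 above TERT on this log2 scale, a 2.02-fold ratio, in 8 of 8 libraries. All 3 H/ACA members thus had more reads per length than TERT. The order depends on length: on CPM, TERT exceeded GAR1 by 1.55 and NOP10 by 0.88 log2 units, and with the longest transcripts GAR1 exceeded DKC1 by 0.30.

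TERT, ACD (28.7 ± 10.9 RPKM), TERF2IP (27.7 ± 4.24) and TINF2 (25.8 ± 4.16) formed a middle group whose order was not resolved. The 6 unresolved pairs were exactly those among these 4 genes. The log2 ratio of TERT to ACD was 0.12 ± 0.40, from -0.63 to 0.49 between libraries (exact permutation p = 0.391, adjusted p = 0.409, n = 8). That of TERT to TERF2IP was 0.11 ± 0.18 (exact permutation p = 0.156, adjusted p = 0.167), and that of TERF2IP to TINF2 was 0.11 ± 0.11 (exact permutation p = 0.0469, adjusted p = 0.0527). These values do not show equal levels, and other lengths resolved several of the pairs or all of them. On the longest transcripts all 6 pairs passed the test. TERF2IP then exceeded TERT by 0.28, ACD by 0.77 and TINF2 by 1.09 log2 units, TERT exceeded TINF2 by 0.81 (adjusted p = 0.00925 for each) and ACD by 0.49, and ACD exceeded TINF2 by 0.32 (both adjusted p = 0.0257, exact permutation tests). On coding lengths TERF2IP exceeded TERT by 0.48, TINF2 by 0.52 and ACD by 0.71 (adjusted p = 0.0095 for each, exact permutation tests). On CPM, with no length, TERT exceeded TERF2IP by 1.03, TINF2 by 1.37 and ACD by 1.54 (adjusted p = 0.011 for each, exact permutation tests).

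The repeat-binding proteins and POT1 lay lower. TINF2 exceeded TERF2 (12.7 ± 0.879 RPKM) by a log2 ratio of 1.01 ± 0.14 in 8 of 8 libraries, and TERF2IP exceeded its binding partner TERF2 by 1.11 ± 0.16 (both exact permutation p = 0.00781, adjusted p = 0.0095). On the longest transcripts TINF2 over TERF2 fell to 0.02 and was no longer resolved (adjusted p = 0.719, exact permutation test). TERF2 exceeded TERF1 (11.4 ± 1.17 RPKM) by 0.15 ± 0.22 in 7 of 8 libraries (exact permutation p = 0.0312, adjusted p = 0.0361). With coding length in place of transcript length, TERF1 was the higher by 0.30 (adjusted p = 0.027), so their order is not settled by these values. TERF1 exceeded POT1 (8.39 ± 0.785 RPKM) by 0.44 ± 0.13 in 8 of 8 libraries, and ACD exceeded POT1 by 1.69 ± 0.61 in 8 of 8, a 3.22-fold ratio (both exact permutation p = 0.00781, adjusted p = 0.0095). On the longest transcripts TERF1 over POT1 was 0.10 and not resolved (adjusted p = 0.0654), and on CPM neither was ACD over POT1 (0.32, adjusted p = 0.27, exact permutation tests). On coding lengths TERT over TERF1 was 0.29 (adjusted p = 0.0527) and ACD over TERF1 0.06 (adjusted p = 0.82, exact permutation tests), so the gap between the middle and the lower genes also depends on the length used.

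**Figure D2:**
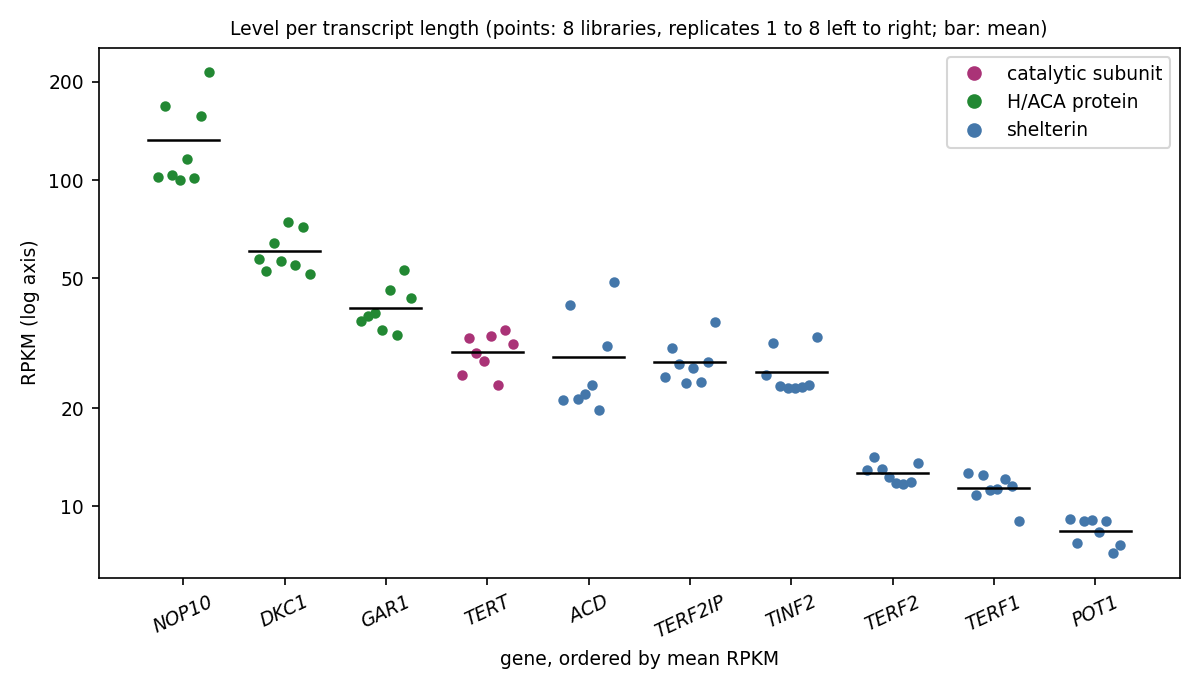
RPKM (vertical log axis) of each gene in the 8 libraries (points, replicates 1 to 8 from left to right) with the mean as a bar, genes ordered by mean. NOP10 averages 133 RPKM, TERT, ACD, TERF2IP and TINF2 average 25.8 to 29.8 RPKM, and POT1 8.39 RPKM.

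Variation between libraries was compared with that of genes of the same abundance with the goodness-of-fit test of edgeR on its dispersion trend, fitted over all 11980 detected genes. Of the 10 genes, 0 varied above the trend at an edgeR adjusted p under 0.05, against 4.66% of all genes, and 1, ACD, had an unadjusted p under 0.05 (edgeR adjusted p = 0.261), against 13.1% of all genes. With the DESeq2 fitted trend, ACD and NOP10 were called, against 23.5% of all genes. The coefficient of variation was below the median of all detected genes (19.2%) for 8 of the 10. It was 38.1% for ACD and 32.0% for NOP10, 13.4% for TERT, and 6.94% to 16.1% for the other 7. Counting error was at most 3.06% in any library for any of the 10.

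Between the libraries of negative and positive length slope, some of the 10 genes separated, at shares near or below those of all detected genes. On CPM, NOP10, TERF2IP and ACD were higher in each of replicates 2, 7 and 8 than in any other library (30.9% of all detected genes were), and POT1 was lower (27.3% of all). The higher count, 3 of 10, is near the background and the lower, 1 of 10, is below it. NOP10 averaged 91.3 CPM in these 3 libraries and 53.1 in the other 5, and ACD 61.1 against 32.6. TERT, the longest of the 10 canonical transcripts (4039 nt), overlapped, averaging 133 CPM against 113. Replicate 7 decided how many genes separated: without it, 8 of the 10 did, with 41.1% of all genes then higher and 35.6% lower. The part of length in these differences was not tested gene by gene.

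The authors' CQN-normalised values, log2 values corrected per library for length and GC effects, give the same libraries another order. On CQN, NOP10 and ACD were higher in each of replicates 2, 7 and 8 (17.3% of all detected genes were), and 0 of the 10 were lower (14.5% of all). The difference was 0.18 for NOP10 (7.21 against 7.03) and 0.19 for ACD (6.68 against 6.49). The higher count, 2 of 10, is near the background and the lower, 0 of 10, is below it. TERF2IP and POT1 overlapped. Without replicate 7, 6 of the 10 separated on CQN: NOP10, POT1 and ACD were higher (32.2% of all were) and TERT, DKC1 and GAR1 lower (27.3% of all). Both counts, 3 of 10 each, are near these shares.

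TERT changed places between the scales. Its CQN values ranged from 7.40 in replicate 8 through a median of 7.85 to 8.09 in replicate 5, and the next lowest, 7.51, was in replicate 2, although replicate 2 was among its 3 highest libraries on CPM. TERT has the highest GC content of the 10, 65.7%. POT1, with the lowest GC content (36.6%), moved the other way: it had its highest CQN values in replicates 8 and 2 (5.64 and 5.53, against at most 5.24 elsewhere), where its CPM was low. ACD, with a GC content of 62.1%, kept its highest values in replicates 8 and 2 on CQN (6.73 and 6.71). The part of GC content or length in these shifts was not tested, nor was which scale is nearer to the RNA in the cells. The CQN values of TINF2 ran from 6.35 in replicate 7 to 6.64 in replicate 1, and those of TERF2IP from 6.81 in replicate 1 to 7.13 in replicate 8. TERF1 ran from 5.74 in replicate 4 to 6.02 in replicate 2, so its low CPM in replicate 8 had no counterpart on CQN (5.83, near its median of 5.83). TERF2 stayed narrow on this scale too, from 5.93 in replicate 7 to 6.11 in replicate 3.

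DKC1 and GAR1 had the same highest libraries on both scales. DKC1 had CQN values from 7.87 in replicate 8 to 8.42 in replicate 5, with replicate 7 second at 8.38. GAR1 ran from 6.21 in replicate 8 to 6.68 in replicate 7, with replicate 5 second at 6.64, but replicate 8, its lowest on CQN, came next after replicates 7 and 5 on CPM (44.3). On CQN replicates 8 and 2 were the lowest for both genes and for TERT. The SD on CQN was 0.24 for TERT, above that of 74.4% of detected genes, 0.20 for DKC1, 0.18 for GAR1 and 0.19 for POT1, and 0.07 to 0.12 for the other 6. The median over the 10 was 0.11 and over all detected genes 0.16.

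**Figure D3:**
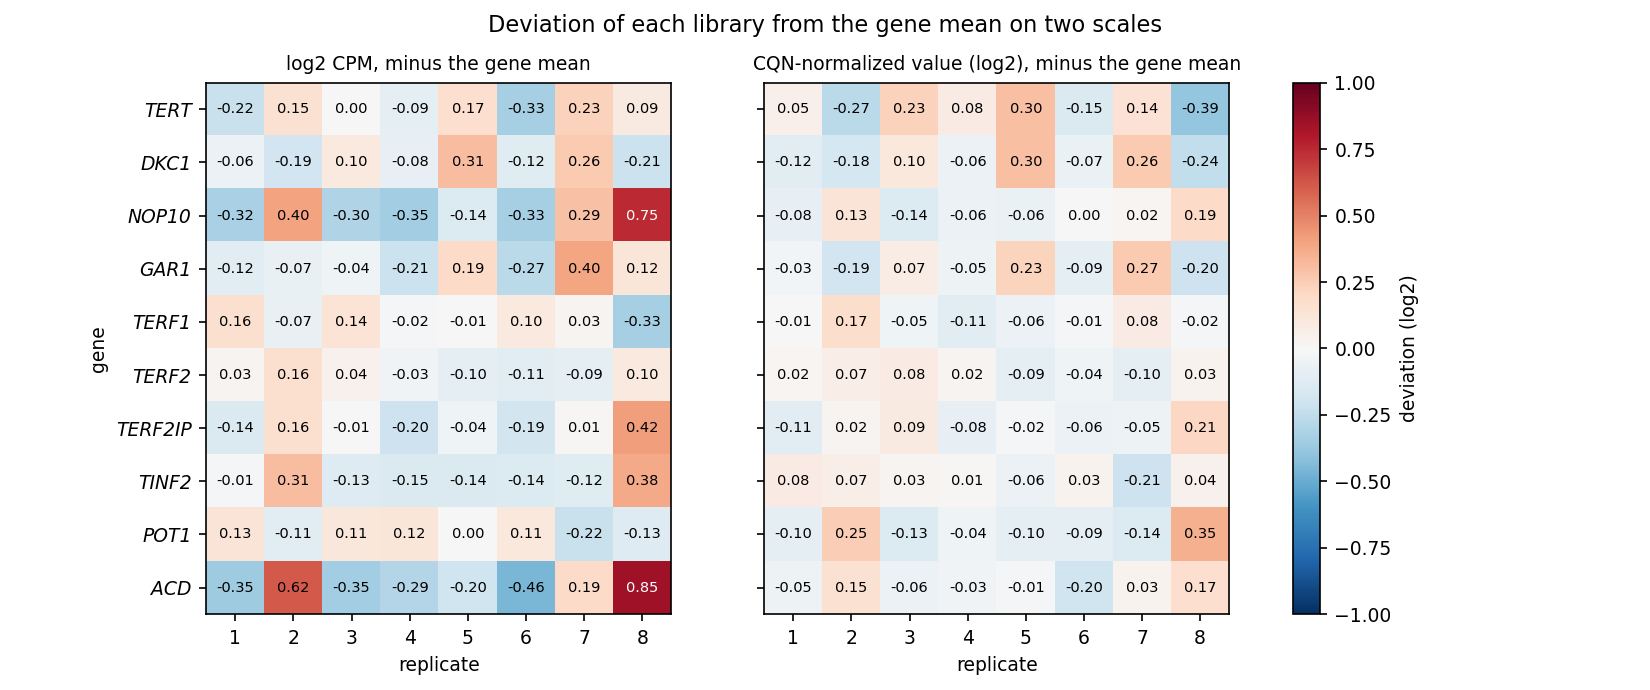
Deviation of each library (columns, replicates 1 to 8) from the mean of each gene (rows) in log2 units, for CPM on the left and the CQN-normalised values on the right. In replicate 8 NOP10 deviates by 0.75 on CPM and 0.19 on CQN, and TERT by 0.09 and -0.39.

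The pattern of TERT over the libraries was set beside that of 11979 other detected genes, as Pearson's r of the CQN values over 8 libraries, given as a description since all genes share the same libraries and their length and GC effects. The most alike were SEMA4F (a membrane semaphorin, r = 0.997), IFRD2 (0.991), TPI1 (the glycolytic enzyme triosephosphate isomerase, 0.99), RNF126 (a ubiquitin ligase, 0.988) and GNA12 (a G protein alpha subunit, 0.985). GAR1 ranked 662 with r = 0.867 and DKC1 742 with r = 0.859, whereas NOP10 (-0.868) and POT1 (-0.861) ran opposite. This ranking depended on the scale. On log2 CPM, SEMA4F had r = 0.06 and NOP10 0.654, while IFRD2 (0.913), RNF126 (0.894) and GAR1 (0.828) stayed high and POT1 stayed opposite (-0.799). TPI1 fell to 0.712, GNA12 to 0.474 and DKC1 to 0.446.

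Beyond the 10, 33 other genes of telomerase assembly and telomere maintenance were examined in 4 lists, and 31 were detected. Of these, 2 varied above the trend, ATRX and RTEL1, against 4.66% of all detected genes, and 5 had an unadjusted p under 0.05, against 13.1% of all.

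Of the 11 genes for H/ACA assembly and telomerase RNA, 10 were detected and 0 varied above the trend (0 also had an unadjusted p under 0.05). NHP2, the core H/ACA protein that completes the set with DKC1, NOP10 and GAR1, was the highest at 141 ± 39.3 RPKM (SD, n = 8), beside 133 ± 42.6 RPKM for NOP10. PAPD5, a poly(A) polymerase that acts on TERC, was the lowest detected at 2.90 ± 0.763 RPKM. TERC itself was not detected, at 0 to 20 counts per library and 0.0949 ± 0.0716 CPM. TERC does not end in a poly(A) tail, and these libraries were made from polyadenylated RNA, so its level in the cells was not measured.

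The CST complex binds the single-stranded overhang and fills in the other strand. CTC1 had 5.38 ± 0.802 RPKM and STN1 (listed as OBFC1) 3.61 ± 0.344 RPKM (SD, n = 8). Per length both means were below that of POT1. On CPM, STN1 (23.0) was below POT1 (32.9) but CTC1 (37.9) was above it, and these orders were not tested. TEN1 had 0 counts in 8 of 8 libraries, where 3 read pairs would give 0.0665 to 0.088 CPM. Its interval overlaps that of TEN1-CDK3, which was listed at 1.15 to 1.87 CPM, and how reads shared by overlapping genes were counted is not stated.

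All 12 telomere helicases, nucleases and break sensors were detected. FEN1, the flap endonuclease of DNA replication, was the highest at 82.3 ± 11.3 RPKM (SD, n = 8). RTEL1, a helicase that unwinds telomeric loops, was the lowest at 0.808 ± 0.417 RPKM and varied above the trend (edgeR goodness-of-fit adjusted p = 0.0251). It ranged from 1.85 CPM in replicate 1 to 7.69 CPM in replicate 8, with 5.34 CPM in replicate 2 second. The call was lost without replicate 1, 4 or 8 (adjusted p = 0.137, 0.0919 and 0.206), and RTEL1 overlaps the listed readthrough gene RTEL1-TNFRSF6B. The neighbouring gene TNFRSF6B, a decoy receptor, had 62.7 CPM in replicate 8 against 1.97 to 4.38 CPM in the other 7 libraries, and its part in the RTEL1 values was not tested.

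All 7 shelterin partners and chromatin genes were detected. HNRNPA1, an RNA-binding protein with many processed pseudogenes, was the highest at 50.6 ± 9.77 RPKM, and TNKS, a tankyrase that modifies TERF1, the lowest at 7.03 ± 2.24 RPKM (SD, n = 8). On CPM, with no length, PINX1 (17.8) was below TNKS (67.7). ATRX, a chromatin remodeller whose loss marks cells that lengthen telomeres without telomerase, varied above the trend (edgeR goodness-of-fit adjusted p = 6.97e-05, and at most 9.08e-04 when any library was left out). It had 35.6, 46.8 and 59.4 CPM in replicates 8, 2 and 7 and 126 to 163 CPM in the other 5. On CQN these 3 libraries were also the lowest, at 5.86 to 5.97 against at least 6.49. These are the libraries with a negative length slope, and the part of length (a transcript of 11165 nt) in the ATRX values was not tested.

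**Figure D4:**
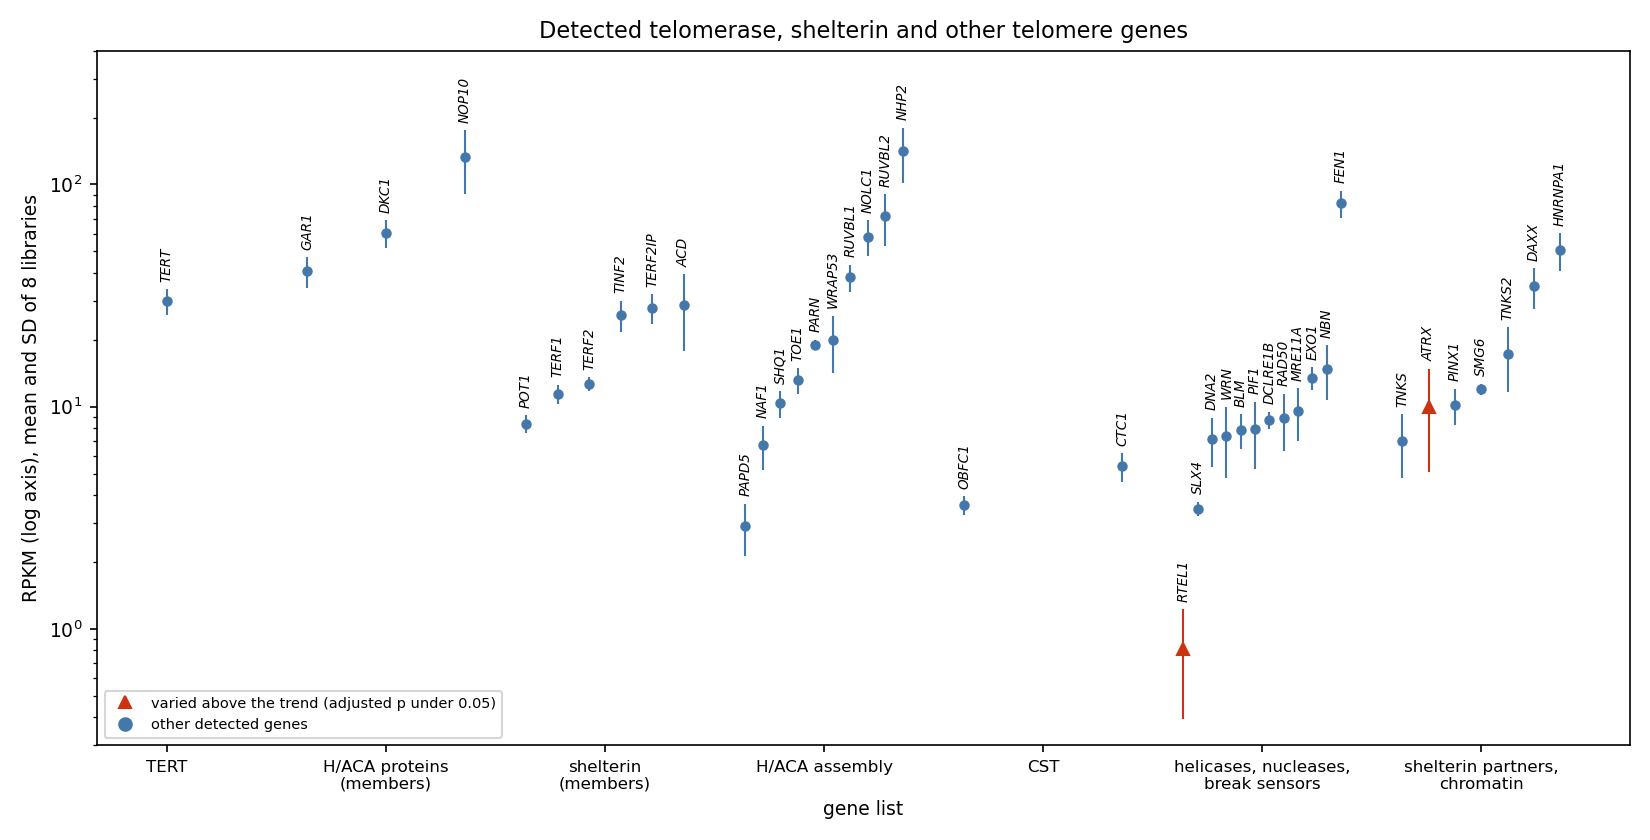
Mean RPKM (vertical log axis) with SD over the 8 libraries for each detected gene of 7 lists; red triangles mark the genes that varied above the trend. NHP2 (141 RPKM) and NOP10 (133 RPKM) are highest, and DKC1 (60.4 RPKM) and GAR1 (40.6 RPKM) lie below FEN1 (82.3 RPKM). Shelterin spans 8.39 to 28.7 RPKM, and RTEL1 (0.808 RPKM) and ATRX are the marked genes.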

How the data were processed

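RNA of 8 replicate libraries of hCMEC/D3 was sequenced after poly(A) selection with a TruSeq kit, per the labels' protocols. The authors deposited 1 table of raw counts and CQN-normalised values on a log2 scale (conditional quantile normalisation, per the file headers). CASAVA 1.9, TopHat2 2.0.6, HTSeq and hg19 are named in the submitters' processing notes, without their roles. The annotation and the use of strand are not given in the sources used here. All 16 value columns were matched to samples by their titles.

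CPM was computed from the deposited counts with TMM-scaled library sizes (edgeR 4.0.16, R 4.3.3). Genes with at least 1 CPM in all 8 libraries were called detected. RPKM used the length of the canonical transcript in GENCODE 44 on GRCh37, which 97.2% of detected genes had. Starts in the table were 1 below the annotation for 6223 genes, so coordinates are printed 1-based. The CQN values are not per length: CQN minus log2 CPM fell by 0.37 per doubling of length over 11650 genes. The main order of genes therefore used RPKM, and pair ratios on CQN are given only as an alternative.

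Pairs of genes were tested with exact two-sided sign-flip permutation on log2(RPKM + 0.1), adjusted over 45 pairs. Variation was tested by goodness of fit to the dispersion trend of edgeR, with Benjamini-Hochberg adjustment over all detected genes. Both thresholds were 0.05. Alternatives were plain totals, DESeq2 (1.42.0) size factors and fitted trend, other filters, lengths and pseudocounts, halved counts and leaving out each library. The members and lists were chosen with earlier results of these data known. Named genes were the 10 members, the undetected genes of each other list (where 5 or fewer), its highest and lowest detected gene by RPKM and those that varied above the trend, and the 5 genes most like TERT on CQN.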

Additional observations from a re-analysis of the deposited data

How the results depend on the processing

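The 10 members stayed detected under each of 11 alternatives. No member varied above the trend under any alternative except the DESeq2 fitted trend, which called 2, ACD and NOP10. The number of resolved pairs, 39 of 45, moved between 34 (CPM without length) and 42 (CQN), and between 37 and 39 when a library was left out. These counts hide changes: of the 39, 25 kept direction and call on CPM, 33 on CQN, 34 with the longest transcript and 35 with coding length, while 4, 4, 1 and 1 were called the other way.

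The order of genes depended on length. GAR1 over TERT turned to -1.55 on CPM and -1.37 on CQN, NOP10 over DKC1 to -1.19 and -1.02, NOP10 over TERT to -0.88 and -0.69, and GAR1 over TERF2IP to -0.52 and -0.51. GAR1 over ACD was -0.0058 on CPM and -0.15 on CQN and was not resolved on either (adjusted p = 0.953 and 0.139, exact permutation tests). With the longest transcript, DKC1 over GAR1 became -0.30 and TERT over TERF2IP -0.28. With coding length, added after seeing the data, TERT over TERF2IP became -0.48 and TERF2 over TERF1 -0.30. GAR1 over ACD lost its call without replicate 1, 3, 4, 5, 6 or 7, and TERF2 over TERF1 without any but replicate 6.

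The number of members that separated between replicates 2, 7 and 8 and the rest on CPM was 4. It was 2 on CQN, and between 4 and 8 when a library was left out, with 8 without replicate 7 (6 on CQN). Of all detected genes, 30.9% were higher and 27.3% lower on CPM, and 17.3% and 14.5% on CQN. Without replicate 7 these shares rose to 41.1% and 35.6% on CPM, and to 32.2% and 27.3% on CQN. RTEL1 had an adjusted p of 0.124 when all genes with any count were tested. No paired analysis was possible because all samples belong to 1 group. Of the 39 sets of values checked, 0 held a library that stood apart from the other 7 by its gap. Depth did not limit the members, which had at least 2130 counts in every library.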
